A study of Mus musculus with 2 samples.

Results

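The Wnt pathway genes on these arrays were the members of the Wnt, Fzd, Dvl, Sfrp and Dkk families, together with named parts of the β-catenin destruction complex, its nuclear partners and known targets of the pathway. They were chosen by gene symbol, from probe sets annotated to a single gene, and with earlier results of these data known. They comprised 61 genes with 101 probe sets among 12393 genes with 20380 probe sets. Tcf7 and Znrf3, which the selection also named, are not analysed here. The prefix Dkk also brought in Dkkl1, a secreted Dickkopf-like protein.

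RNA came from 2 stably transfected clones of the mouse embryonic stem cell line E14tg2a. In the shDAB2 clone, which is clone 4 of plasmid shDAB2-285, a short hairpin RNA was directed against Dab2. The vector clone, clone 9 of the control plasmid, carried no such hairpin. Both grew in GMEM with 10% fetal bovine serum, L-glutamine, antibiotics and 1000 U/ml of LIF, the cytokine that keeps these cells undifferentiated, and the labels give no further treatment. There was 1 Affymetrix mouse 430A array for each clone. Every value below is thus a single measurement, there is no test across samples, and hairpin, clone and culture cannot be told apart.

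In the canonical Wnt pathway a secreted, acylated Wnt protein binds a Frizzled receptor and the co-receptor LRP5 or LRP6 on the cell surface. Without a ligand, a complex of Axin, APC, casein kinase I and GSK3 phosphorylates β-catenin and marks it for degradation; with one, Dishevelled holds the complex off, and β-catenin enters the nucleus and turns on genes through TCF and LEF factors. In mouse embryonic stem cells β-catenin relieves repression of the self-renewal network by TCF7L1 and also supports cell adhesion at cadherin junctions. Disabled-2, the endocytic adaptor encoded by Dab2, is known from other cells to bind Axin and Dishevelled and to dampen β-catenin signalling.

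The deposited log2 signals were used as given, and the measure was the difference between the clones, shDAB2 minus vector, so that a negative value means lower in the shDAB2 clone. Each gene was read on its probe set with the highest mean signal. Genes whose mean reached 6.62 were called above the floor, which is the median of all values on both arrays. Signals of different probe sets cannot be set against each other as levels, so values are compared only between the clones. A difference was counted when the higher clone exceeded the lower by at least 25%, a log2 difference of 0.32. From the 2370 genes that could be read on another probe set above the floor as well, the SD of 1 probe set's difference was 0.11, which covers probe noise and transcript variants but not culture or clone. Over the 6982 genes above the floor the difference had a median of 0.00 and an SD of 0.22.

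The cells carried the transcripts of embryonic stem cells in both clones. All 8 stem cell markers examined were above the floor and differed by -0.24 (Esrrb) to 0.21 (Utf1), and none of the 7 fibroblast, 6 primitive endoderm or 4 measured primitive streak markers reached it. Of 5 trophectoderm and 3 neuroectoderm markers, Hand1 (-0.02) and Nes (-0.08) did. Dab2 itself was dim, with 6.33 in the shDAB2 clone against 6.64 in the vector clone on its brightest probe set. Its other probe sets differed by -0.05 and -0.01. The mean signal was below the floor on every Dab2 probe set, so how far the hairpin lowered Dab2 cannot be told from these values.

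Of the 61 Wnt pathway genes, 28 were above the floor and 33 below it. Ccnd2 and Porcn passed with 1 array under the floor, that of the vector and the shDAB2 clone respectively. Among the 28, 13 were higher and 15 lower in the shDAB2 clone, where the shares over all 6982 genes were 49.9% higher and 49.4% lower. The median difference was -0.02. At the 25% limit 1 gene was higher, Ccnd1, against a background of 5.04% of all genes, and 2 were lower, Wnt4 and Fzd2, against 6.26%. With so few genes these counts are near the background, and 0 of the 28 genes reached 1.5-fold in either direction (background 0.602% higher and 1.69% lower). At a 1.2-fold limit, chosen after the values were seen, 3 genes were higher (Ccnd1, Ccnd2 and Notum), against 8.15% of all genes, and 5 were lower (Wnt4, Wnt7b, Fzd2, Ctnnb1 and Dvl2), against 8.95%. What the data show is therefore a set of small differences, which follow gene by gene in the order of the pathway. In such bulk RNA, fewer cells with a transcript and less of it per cell cannot be told apart.

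**Figure D1:**
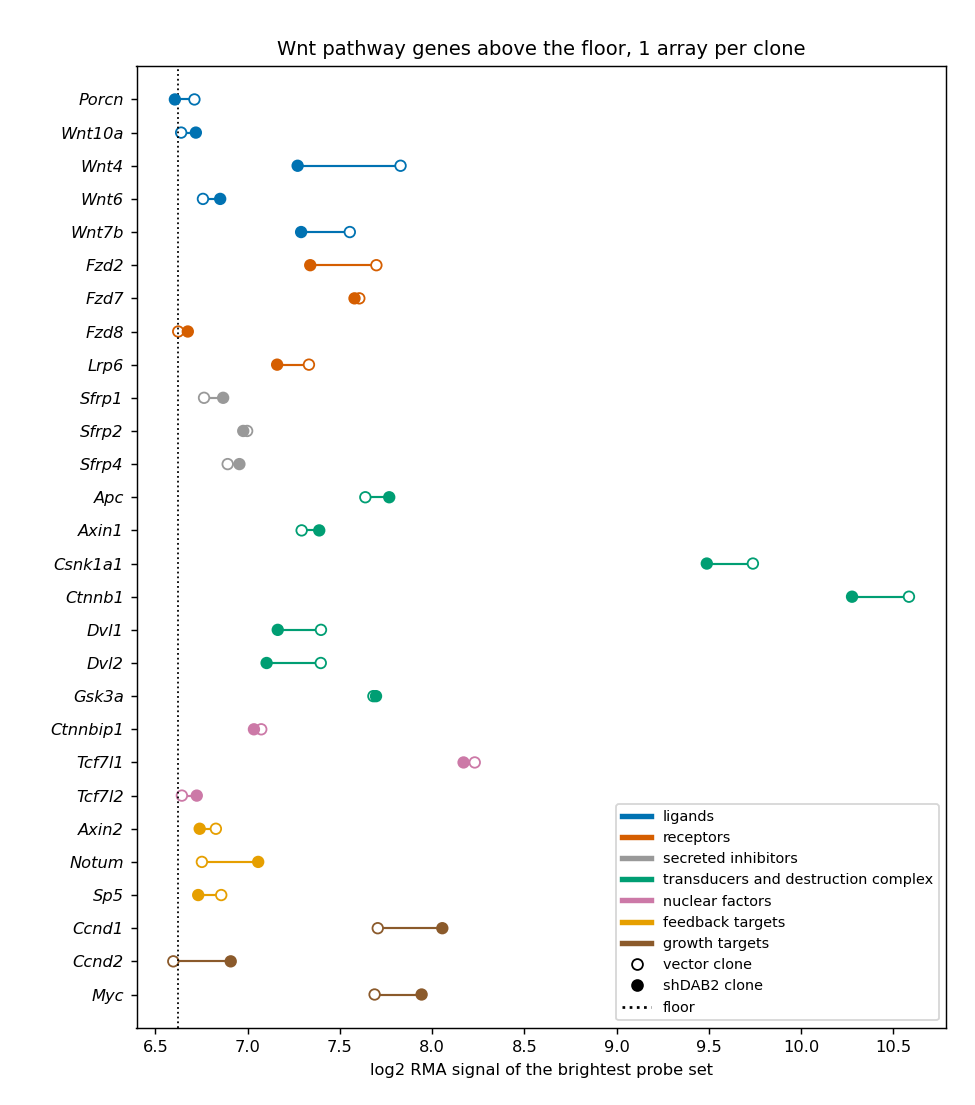
Log2 RMA signal of the brightest probe set (horizontal axis) of the 28 Wnt pathway genes above the floor, with an open point for the vector clone and a filled point for the shDAB2 clone, coloured by role; each point is 1 array and the dotted line is the floor of 6.62. The longest lines are those of Wnt4, at 7.83 in the vector and 7.27 in the shDAB2 clone, Fzd2 and, in the other direction, Ccnd1.

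Most Wnt ligand genes were too dim to compare. Of 19 Wnt genes measured, 15 lay below the floor, among them Wnt3, Wnt3a, Wnt5a and Wnt8a, and their differences ran from -0.21 to 0.09. Those nearest the floor were Wnt11, at 6.55 in the shDAB2 and 6.62 in the vector clone, Wnt3a, at 6.46 and 6.53, and Wnt7a, at 6.38 and 6.58. Dim here means only that the signal lay in the lower part of the arrays' range, since the deposited values carry no detection calls.

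The widest difference of all the pathway genes was that of Wnt4, a ligand known for its part in kidney and female reproductive tract development. Wnt4 read 7.27 in the shDAB2 clone against 7.83 in the vector clone, which is -0.56 on the log2 scale or 1.47-fold lower. It has 1 probe set, so no second reading was at hand. The 2001 probe sets of similar signal (within 0.25 on the log2 scale) had an SD of 0.22, so the difference was 2.58 times that spread. The 250 bases before its RefSeq start, on the plus strand of GRCm38.p6 at chr4:137277385-137277634, are shown because this gene differed most; they hold no match to the TCF/LEF core described below.
Wnt4: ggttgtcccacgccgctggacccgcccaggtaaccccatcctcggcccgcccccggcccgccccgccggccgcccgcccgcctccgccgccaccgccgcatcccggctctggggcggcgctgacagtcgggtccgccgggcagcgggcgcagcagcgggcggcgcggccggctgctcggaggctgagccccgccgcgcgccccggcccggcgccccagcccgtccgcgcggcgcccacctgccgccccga

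Wnt7b, whose protein acts in lung and placental development, was lower by a smaller amount on both of its probe sets. The brightest read 7.29 in the shDAB2 clone against 7.55 in the vector clone, a difference of -0.26, and the other, below the floor, gave -0.25. The other Wnt genes above the floor went the other way by amounts within the probe-set SD. Wnt6 read 6.85 in the shDAB2 and 6.76 in the vector clone, and Wnt10a 6.72 and 6.64. Porcn, which encodes the acyltransferase that attaches the lipid Wnt proteins need for secretion, read 6.61 and 6.71. With Porcn, the ligand group thus had 2 genes higher and 3 lower and a median of -0.11. That median is the value of Porcn, which passed the floor only through the vector clone, and this favours a lower value. The 4 Wnt genes alone gave 2 higher and 2 lower and a median of -0.09. The median of the ligand group also depends on the floor. It was 0.00 over all 20 genes without one and -0.41 over the 2 genes, Wnt4 and Wnt7b, that reached the 75th percentile of all values.

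Among the receptors, Fzd2 stood apart and Fzd7 hardly differed. Fzd2, a Frizzled with roles in both the β-catenin and the non-canonical branch, read 7.34 in the shDAB2 clone against 7.70 in the vector clone. This was a difference of -0.36, or 1.28-fold lower. A second probe set gave -0.37, while the remaining one, near the floor, gave -0.03. Fzd7, the Frizzled gene best known from stem cell self-renewal, read 7.58 and 7.61, a difference of -0.03, with -0.06 on its other probe set.

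Lrp6, the co-receptor that β-catenin signalling needs, read 7.16 in the shDAB2 clone against 7.33 in the vector clone, a difference of -0.17, with -0.08 on a probe set below the floor. Fzd8 read 6.68 and 6.62. Of 4 receptor genes above the floor 1 was higher and 3 lower, and their median was -0.10. The 7 below it had differences from -0.06 to 0.19 and a median of 0.13, so the sign of a receptor median depends on whether dim genes enter. Of these, Fzd5 was the nearest to the floor, at 6.63 in the shDAB2 and 6.43 in the vector clone. Fzd6 followed at 6.47 and 6.53, then Fzd9 at 6.51 and 6.37.

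The secreted inhibitors differed by little. Sfrp proteins resemble the ligand-binding part of Frizzled and can trap Wnt proteins, and some Dkk proteins can block LRP5 and LRP6. Sfrp1 read 6.87 in the shDAB2 clone against 6.76 in the vector clone, Sfrp2 6.98 and 6.997, and Sfrp4 6.96 and 6.89, differences of 0.10, -0.02 and 0.06. The other 6 genes, Sfrp5, Dkk1, Dkk2, Dkk3, Dkk4 and Dkkl1, were below the floor, with differences from -0.04 to 0.06. Those nearest to it were Dkkl1 (6.52 in the shDAB2 and 6.56 in the vector clone), Sfrp5 (6.52 and 6.46) and Dkk3 (6.48 and 6.45). On the brightest probe sets no member of this group differed by more than the probe-set SD of 0.11.

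In the cytoplasmic group the genes of β-catenin and Dvl2 were lower in the shDAB2 clone on each of their probe sets. Of the scaffold genes of the destruction complex, Apc was slightly higher on its probe sets above the floor, and Axin1 went both ways. Ctnnb1, the β-catenin gene, read 10.28 in the shDAB2 clone against 10.58 in the vector clone, a difference of -0.31 or 1.24-fold lower. Its other 2 probe sets gave -0.33 and -0.21, so all 3 readings were lower. Probe sets of similar signal were few (131) and had an SD of 0.28, and the difference was 1.10 times that spread. The 250 bases before the more upstream of its RefSeq starts in the table, on the plus strand of GRCm38.p6 at chr9:120933150-120933399, are shown because this gene is the pathway's central effector and was read lower on every probe set.
Ctnnb1: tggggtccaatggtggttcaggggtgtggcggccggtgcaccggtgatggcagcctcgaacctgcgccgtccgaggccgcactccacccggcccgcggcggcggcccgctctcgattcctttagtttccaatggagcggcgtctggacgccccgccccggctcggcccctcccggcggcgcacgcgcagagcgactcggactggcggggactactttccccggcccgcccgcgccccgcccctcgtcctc

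The Dishevelled genes encode the adaptors that carry the signal from Frizzled to the destruction complex. Dvl2 read 7.10 in the shDAB2 clone against 7.40 in the vector clone, a difference of -0.29, and -0.26 on its second probe set. Dvl1 read 7.16 and 7.40, a difference of -0.23, but 0.04 on its second probe set, so its direction is uncertain. Dvl3 lay below the floor at 6.41 and 6.46. Of the 3 genes, then, Dvl2 alone was lower by more than the probe-set SD on more than 1 probe set.

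Among the scaffold genes, Apc, the tumour suppressor that helps hold β-catenin in the complex, read 7.77 in the shDAB2 clone against 7.64 in the vector clone, a difference of 0.13, with 0.11 on its second and -0.02 on its dim one. Axin1 read 7.39 and 7.29, a difference of 0.10, but -0.06 on its second probe set. The kinases differed among themselves. Csnk1a1, the casein kinase that primes β-catenin, read 9.49 and 9.74, a difference of -0.25 on its brightest probe set but 0.00 on the second and -0.03 on the dim one. Gsk3a read 7.70 and 7.68, and Gsk3b, below the floor, 6.56 and 6.48. In this group 7 genes passed the floor, 3 of them higher and 4 lower, and their median was -0.23. It came to 0.01 over 6 genes without the probe sets that can match several transcripts (IDs ending in _s_at, _x_at or _a_at). That setting leaves out Ctnnb1, whose probe sets all end in _a_at, and reads Csnk1a1 at 0.00. The group median was -0.09 when each gene's probe sets were averaged and -0.05 over 9 genes with no floor. Over the 5 genes that reached the 75th percentile of all values, which leave out Dvl1 and Dvl2, it was 0.01. Neither its size nor its sign is thus settled.

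**Figure D2:**
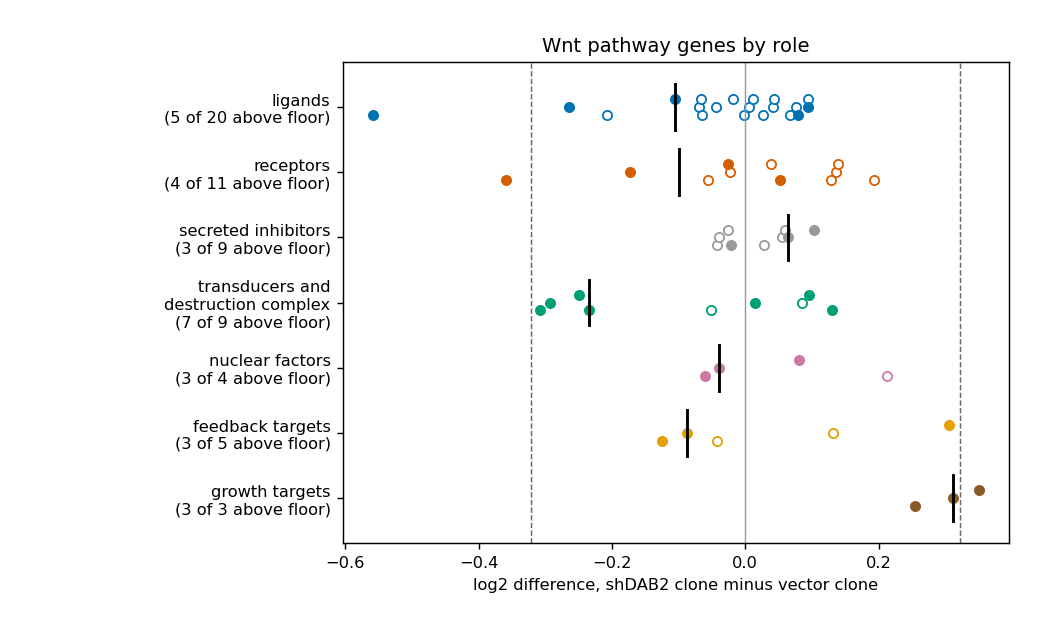
Log2 difference, shDAB2 minus vector, on the brightest probe set of each of the 61 Wnt pathway genes (horizontal axis) by role; filled points are above the floor, open points below it, black bars are medians of the filled points and dashed lines mark the 25% limit. The 3 growth targets lie between 0.25 and 0.35, whereas the transducers and destruction complex run from -0.31 to 0.13.

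The nuclear factors hardly differed. Tcf7l1, the TCF factor that represses pluripotency genes in these cells, read 8.17 in the shDAB2 clone against 8.23 in the vector clone, a difference of -0.06, with -0.14 on its second probe set. Tcf7l2 read 6.72 and 6.64, and its 3 dim probe sets gave -0.04, -0.14 and -0.05. Ctnnbip1, which encodes an inhibitor of the contact between β-catenin and TCF, read 7.03 and 7.07. Lef1, itself a known target, lay below the floor on both arrays, at 6.37 and 6.16. Its difference of 0.21 was 2.77 times the SD of 0.08 of probe sets of similar signal; RMA is known to shrink differences at the dim end, so both the difference and this spread are small.

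The targets were read in 2 sets by role, feedback genes and growth genes. Feedback genes are those that β-catenin induces and whose products restrain the signal. Axin2, the most widely used transcript readout of β-catenin signalling, read 6.74 in the shDAB2 clone against 6.83 in the vector clone, a difference of -0.09, and 0.02 on its second, dim probe set. Sp5, a zinc finger factor induced by Wnt in many tissues, read 6.73 and 6.86, a difference of -0.12. Both were thus slightly lower, by amounts close to the probe-set SD.

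Notum encodes the extracellular enzyme that removes the lipid from Wnt proteins. It read 7.06 in the shDAB2 clone against 6.75 in the vector clone, a difference of 0.31 or 1.24-fold higher, which was 2.05 times the SD of 0.15 of probe sets of similar signal. It has 1 probe set. Nkd1, an inhibitor of Dishevelled, and Rnf43, a ubiquitin ligase that removes Frizzled from the surface, lay below the floor. Nkd1 read 6.43 and 6.30, and Rnf43 6.19 and 6.23. Of the 3 feedback genes above the floor 1 was higher and 2 lower, with a median of -0.09. With the mean of each gene's probe sets Axin2 dropped below the floor and the median over the remaining 2 was 0.09, so its sign depends on this choice.

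The growth targets were higher in all 3 cases, against 49.9% of all genes, though 1 of them alone passed the 25% limit (background 5.04%). Cyclin D proteins drive entry into the cell cycle, and Myc is a transcription factor of growth and self-renewal; all are reported targets of β-catenin and also of other pathways. Ccnd1 read 8.06 in the shDAB2 clone against 7.71 in the vector clone, a difference of 0.35 or 1.27-fold, and its other probe sets gave 0.24 and 0.29. Ccnd2 read 6.91 and 6.60, a difference of 0.31, with 0.21 on the second probe set above the floor and -0.01 to 0.15 on the 5 below it. Myc read 7.94 and 7.69 on its only probe set, a difference of 0.25. The median of the growth targets was 0.31, which is the value of Ccnd2, while the median over all genes was 0.00. Ccnd2 passed the floor only through the shDAB2 clone, which favours a higher value. Over the 2 growth targets that reached the 75th percentile of all values, Ccnd1 and Myc, the median was 0.30. Ccnd1 was higher on 3 of 3 probe sets, and its difference was 1.42 times the SD of 0.25 of probe sets of similar signal.

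**Figure D3:**
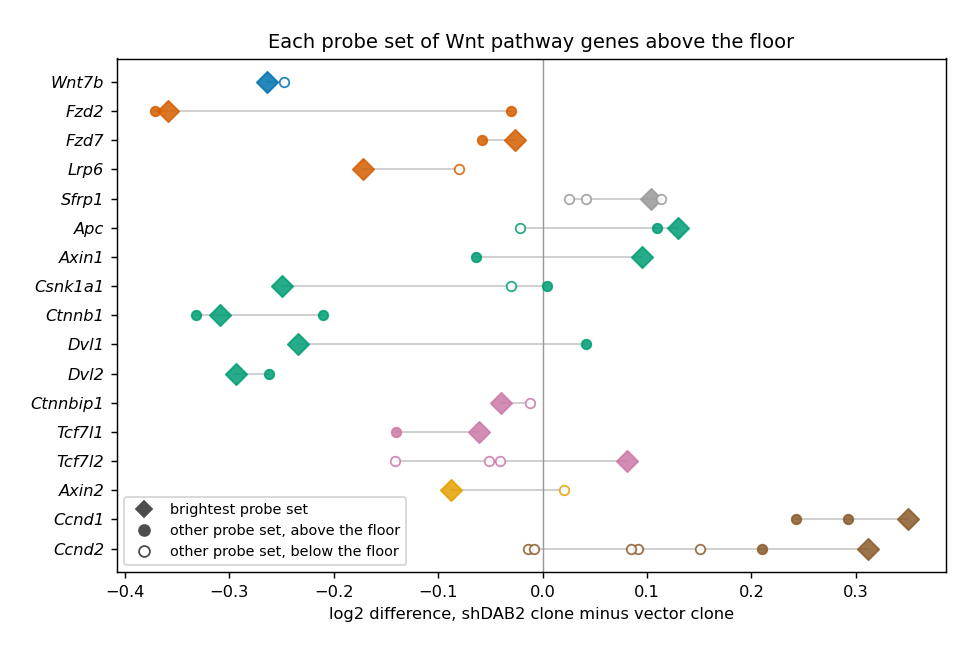
Log2 difference, shDAB2 minus vector (horizontal axis), of all 48 probe sets of the 17 Wnt pathway genes above the floor that have more than 1; diamonds are the brightest probe set of each gene, filled circles other probe sets above the floor and open circles those below it. The probe sets of Ctnnb1, Dvl2, Wnt7b and Ccnd1 lie together on one side of 0, whereas those of Dvl1, Axin1 and Tcf7l2 fall on both.

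Repeat readings on separate probe sets bear on how far each gene can be trusted. Of 11 Wnt pathway genes with another probe set above the floor, 8 had the same sign on both, and the exceptions were Axin1, Dvl1 and Csnk1a1. The 5 that differed by at least 1.2-fold on the brightest, a limit chosen after the values were seen, were Fzd2, Ctnnb1, Dvl2, Ccnd1 and Ccnd2. In these the sign was the same in 5, and among all genes past that fold it was the same in 462 of 490. Both Ccnd2 probe sets passed the floor only through the shDAB2 clone, which favours a higher value on each. Of all 2370 genes with such a pair, 1799 had the same sign.

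TCF and LEF factors bind a core that reads CTTTGNN, each N here being A or T, and the 250 bases before each RefSeq start were searched for it on both strands. The promoter table matched 39 of the 61 genes, with 49 starts, and 8 of the starts (16.3%) held a match, against 14.8% of all 32851 starts in the table. A match is a description of letters and not a binding site. The sequences of Sp5 and Axin2 are shown because they are the targets used most directly as readouts and were read slightly lower here. Sp5, on the plus strand of GRCm38.p6 at chr2:70474673-70474922, held a match at position -222 and another at -104, with the position that of its first base counted back from the start, and the matches in capitals. Axin2, on the plus strand at chr11:108920099-108920348, held none in this window, as was also the case for the Wnt4 and Ctnnb1 sequences above.
Sp5: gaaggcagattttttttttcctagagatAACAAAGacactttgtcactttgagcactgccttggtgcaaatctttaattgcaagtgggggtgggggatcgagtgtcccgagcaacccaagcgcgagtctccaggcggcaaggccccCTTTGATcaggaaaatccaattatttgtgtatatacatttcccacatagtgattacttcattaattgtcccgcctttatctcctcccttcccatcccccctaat
Axin2: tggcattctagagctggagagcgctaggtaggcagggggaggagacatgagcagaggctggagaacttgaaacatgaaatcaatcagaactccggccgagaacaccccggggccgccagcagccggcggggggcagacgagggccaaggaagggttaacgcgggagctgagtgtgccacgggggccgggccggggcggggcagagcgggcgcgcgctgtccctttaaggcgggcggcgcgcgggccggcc

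Other members with a match were Dkk1, with one at -117 and one at -98, and Fzd7, Gsk3a, Lef1, Tcf7l2, Wnt11 and Wnt5b with 1 each. Their differences between the clones had both signs, from -0.07 for Wnt11 to 0.21 for Lef1.

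Further genes of the pathway were read from 6 lists of genes outside the selection above. In the list of ligand export and receptor partners, 6 of 18 measured genes were above the floor, of which 0 were at least 25% higher (background 5.04%) and 1 at least 25% lower (background 6.26%); the median was -0.14. That gene was Gpc4, a glypican of the cell surface, at 7.55 in the shDAB2 clone against 7.92 in the vector clone. Wls, the carrier that brings Wnt proteins to the cell surface, read 6.76 and 7.08, a difference of -0.32 that was just short of the limit, and its second probe set gave -0.37. Ptk7, a co-receptor of planar polarity, and Ror2, a receptor of Wnt5a, each differed by -0.14. The R-spondin genes Rspo1 and Rspo2 and their receptors Lgr5 and Lgr6 lay below the floor.

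Among the intracellular regulators, 24 genes passed the floor. Of these 0 were at least 25% higher (background 5.04%) and 4 at least 25% lower (background 6.26%). By any amount 8 were higher and 16 lower, where all genes gave 49.9% and 49.4%, and the median was -0.07. Cxxc5, a zinc finger protein that binds Dishevelled, read 7.95 in the shDAB2 clone against 8.65 in the vector clone, a difference of -0.70, with -0.40 on its second probe set. Ctnna1, α-catenin, which ties β-catenin to actin at cell junctions, read 10.02 and 10.59, a difference of -0.57, with -0.60 on its second probe set. Jup, plakoglobin, a close relative of β-catenin in junctions, read 7.47 and 7.88, a difference of -0.41. Csnk1e, a casein kinase that acts on Dishevelled, read 7.56 and 7.95, a difference of -0.39, with -0.40 on its second probe set.

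In the lists of nuclear cofactors and of the planar polarity and calcium branch, 0 genes were at least 25% higher (background 5.04%) and 0 at least 25% lower (background 6.26%). With 14 and 13 genes above the floor, these counts are near the background. In the first, 7 of 14 genes above the floor had a higher and 7 a lower value, against 49.9% and 49.4% of all genes, for a median of -0.01. The widest were Ruvbl1, an ATPase of chromatin complexes, at 0.28, Chd8, a chromatin remodeller that restrains β-catenin, at 0.23, the Groucho co-repressor gene Tle3 at -0.18, and Cby1, an inhibitor of β-catenin, at 0.18. In the second, 7 of 13 were higher and 6 lower; the median was 0.02. The widest there were Nfatc3 (0.25), the calcineurin gene Ppp3cb (-0.20), the small GTPase gene Rac1 (-0.20) and the polarity gene Vangl1 (-0.17).

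Genes that TCF7L1 is known to repress in stem cells were mixed. Of the 7 genes, all above the floor, 2 were higher and 5 lower by any amount, against 49.9% and 49.4% of all genes, and the median was -0.20. At the 25% limit 0 were higher (background 5.04%) and 2 lower (background 6.26%). Tfcp2l1, a factor of the naive state, read 7.57 in the shDAB2 clone against 8.22 in the vector clone, a difference of -0.65, which was -0.25, short of the limit, as the mean of its probe sets. Klf2 read 9.02 and 9.56, a difference of -0.54. Esrrb, a direct TCF7L1 target in these cells, differed by -0.24 and by -0.21 on its second probe set, and Tbx3 by -0.20. The rest of the list is named after its values were seen. Nanog differed by -0.02. The 2 higher genes were Nr5a2, at 7.26 and 7.10, a difference of 0.16 with 0.20 on its second probe set, and Nr0b1, at 0.00.

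Other genes reported as β-catenin targets in various tissues showed both directions. Of 14 above the floor, 2 were at least 25% higher (background 5.04%) and 3 at least 25% lower (background 6.26%). By any amount 5 were higher and 9 lower, against 49.9% and 49.4% of all genes, and the median was -0.06. Fgf4, a growth factor of the inner cell mass, read 8.90 in the shDAB2 clone against 8.29 in the vector clone, a difference of 0.61, with 0.34 on its second probe set; as the mean of its probe sets it was 0.30, below the 25% limit. Ccne1, cyclin E1, read 8.57 and 8.01, a difference of 0.56. On the other side stood Ccn1, a matrix protein gene, at 7.52 and 8.06 (-0.54, and -0.55 on the second probe set), and Bmp4 at 7.98 and 8.51 (-0.53). The other lower gene, Jun, named after its value was seen, differed by -0.34, and by -0.10 on its second probe set. Actb, a common reference gene, differed by -0.06.

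**Figure D4:**
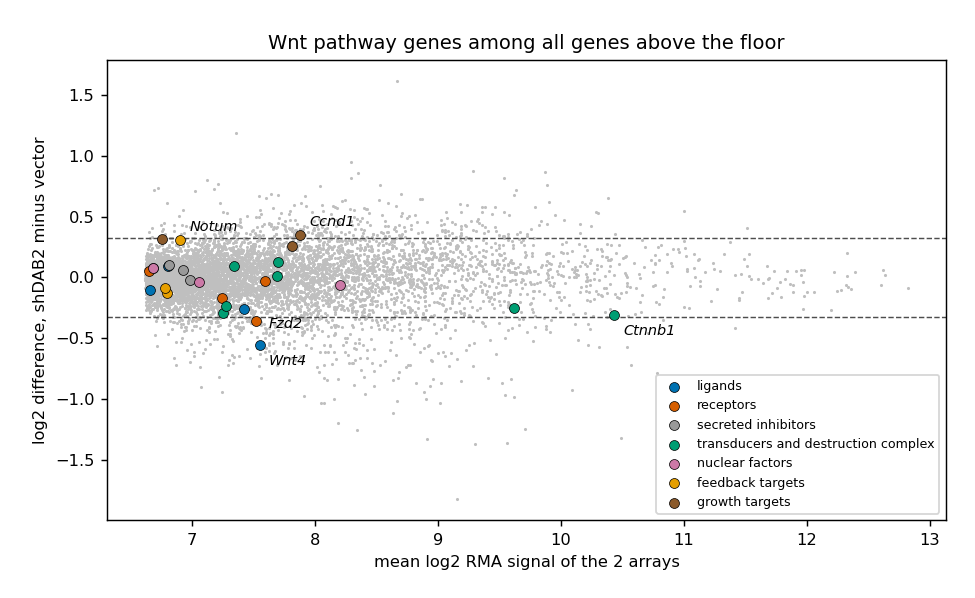
Log2 difference, shDAB2 minus vector (vertical axis), against the mean log2 signal of both arrays (horizontal axis) for the 6982 genes above the floor; coloured points are the 28 Wnt pathway genes by role, grey points all other genes and dashed lines the 25% limit. Wnt4 at -0.56 lies farthest from 0 among the coloured points, and the grey cloud reaches -1.82 and 1.62.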

How the data were processed

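RNA abundance was measured on 2 Affymetrix mouse 430A arrays, 1 per clone, from 10 µg of total RNA each; the titles give the groups. In the deposited table each probe set has 1 log2 value per array, made by the authors with RMA, per the submitters' processing notes. RMA subtracts background, quantile-normalizes and summarises probes; its version is not given in the sources used here. Nor is the base of the logarithm, which was taken as log2, the scale that RMA writes. RMA shrinks differences of dim probe sets. The number of arrays limits the precision.

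Of 22626 probe sets, 20380 had 1 gene in the platform annotation and were used, 691 had several and 1555 were unnamed here. All 101 probe sets of the Wnt pathway genes matched RefSeq gene IDs (GRCm38.p6), with 0 symbols changed. The arrays ran from 5.67 to 12.81 (shDAB2) and from 5.65 to 12.86 (vector), correlated at 0.99 across probe sets.

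Values were handled in Python 3.11.15 with pandas 2.3.3, and cyclic loess used limma 3.58.1 in R 4.3.3. No p-value was computed. Named genes are every Wnt pathway gene above the floor, up to 3 per group below it that lie nearest the floor, up to 4 genes with the widest difference in each further list, Dab2 and Actb; others are said to have been chosen after their values were seen, apart from dim genes, markers and genes with a motif match, which are named as sets. Members, lists, the fold limit and alternatives were chosen with earlier results of these data known. The counting code was checked on simulated data, with planted differences well past the limit and less noise than in these data. This tests the code and not the counts reported here. Alternatives were other normalizations, probe-set choices, floors and fold limits. Promoter sequences are from RefSeq (GRCm38.p6).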

Additional observations from a re-analysis of the deposited data

How the results depend on the processing

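The counts of 1 gene at least 25% higher (Ccnd1) and 2 lower (Wnt4, Fzd2) recurred under several alternatives, but out of unlike numbers of genes. They were out of 28 after median centring (background 4.78% higher, 6.51% lower) and 21 without probe sets ending in _s_at, _x_at or _a_at (5.01%, 6.01%). With no floor they were out of 61 (2.90%, 3.57%), and with the floor on the higher value out of 29 (4.91%, 6.07%). With the floor at the 75th percentile they were out of 12 (8.11%, 9.38%). Cyclic loess gave 1 and 3, Ctnnb1 joining the lower genes. Averaging every probe set per gene gave 0 higher and 1 lower of 24 (background 3.73% and 5.13%). The lower gene was Wnt4, which has 1 probe set, with Ccnd1 at 0.30 and Fzd2 at -0.25. The averages take in probe sets with smaller differences. Limits of 1.5-fold and 2-fold gave 0 and 0, since Wnt4, the widest, was 1.47-fold lower. At 1.5-fold the background was 0.602% higher and 1.69% lower, and at 2-fold 0.0286% and 0.186%. A 1.2-fold limit, chosen after seeing the data, gave 3 higher (Ccnd1, Ccnd2, Notum) and 5 lower (Wnt4, Wnt7b, Fzd2, Ctnnb1, Dvl2), against 8.15% and 8.95% of all genes. The median over the Wnt pathway genes stayed within the probe-set SD (0.11) of its main value, from -0.04 to 0.01, under the 7 alternatives that change the normalization, probe sets or floor. Of 381 values of single genes and role groups under the alternatives, 366 stayed within that SD, 15 did not, and 0 differences of at least 25% changed sign. Many of these values could not move. A change of floor leaves the difference of a single gene as it was, and median centring shifts every gene alike, by 0.0077. The count of 366 is therefore no measure of robustness. No paired analysis was possible because each group holds 1 array and the clones share no replicate number. With 1 array per clone, differences of this size cannot be separated from the spread between cultures.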
